A study of Mus musculus with 6 samples.

Results

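The kinesins are motor proteins that walk along or dismantle microtubules, and their genes were followed here in germinal centre B cells of mice with and without a Uchl1 transgene. A gene belonged to the family if its symbol began with Kif and a number or with Kifc, and the adaptor Kifap3 was added. On the Affymetrix mouse expression array used 42 such genes had a probe set of their own, out of 18193 genes measured. They were sorted by known role into 14 mitotic kinesins, 16 transport kinesins and 12 others, which act in cilia, in signalling, on microtubule growth or in several of these places. Each gene was read by the probe set with the highest mean over the 6 arrays, in log2 expression units. Because each probe set binds its target with its own strength, differences were taken between arrays for a gene and not between genes. Levels of different genes were only sorted as dim or not by a common limit, given below.

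The cells were isolated on magnetic beads out of spleen after immunisation with sheep erythrocytes. The ImHABCL6/Uchl1 mice (3 arrays) carried a Uchl1 transgene, a deubiquitinating enzyme, on top of the ImHABCL6 allele, and the ImHABCL6 mice (3 arrays) carried that allele alone. The ImHABCL6 allele, which both groups share, places BCL6 with a haemagglutinin tag under the control of the antibody heavy-chain locus, so neither group is wild type. The labels read here do not give the promoter of the Uchl1 transgene or the age, sex and strain of the mice.

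As background, kinesins hydrolyse ATP in a conserved motor domain and differ in what they do with the force. Mitotic kinesins build the spindle, move chromosomes and complete cell division, and most of them are made only in cycling cells, among which germinal centre B cells are some of the fastest dividing. Transport kinesins carry vesicles, endosomes, mitochondria and protein complexes toward the ends of microtubules in dividing and resting cells alike. In cytotoxic lymphocytes the second kind also moves lytic granules.

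Uchl1 read 5.96, 5.87 and 6.02 in the ImHABCL6/Uchl1 arrays and 5.01, 4.999 and 5.02 in the ImHABCL6 arrays, a log2 difference of 0.94 (SE 0.12) with the groups apart, so the array labels matched the transgene; its adjusted limma p was 0.638 and its probe set was dim. B-cell and germinal centre markers were bright, with 11 of 11 measured genes above the dim limit, which was the median of all values (5.60). Erythroid markers were bright as well, 16 of 16, and their mean level was 9.07, 11.07 and 10.47 in the ImHABCL6/Uchl1 arrays and 10.69, 11.28 and 11.71 in the ImHABCL6 arrays. All 16 had a lower mean in ImHABCL6/Uchl1 arrays, with a median log2 difference of -1.11. Of these 9 had an unadjusted p under 0.05, beside 4.94% of all genes, and 4 were lower in every ImHABCL6/Uchl1 array, beside 5.49%. T-cell markers were mostly dim (3 of 7 above the limit). Other lists were mostly above it: megakaryocyte and platelet markers (7 of 7), macrophage and granulocyte markers (6 of 8) and plasma cell markers (5 of 6). The macrophage and granulocyte mean was 6.36, 6.25 and 6.40 in the ImHABCL6/Uchl1 arrays and 6.67, 6.02 and 5.80 in the ImHABCL6 arrays. In a mixed preparation of this kind, fewer cells of a type and less RNA per cell cannot be told apart. The median log2 difference of all genes between the groups was 0.0029, and 0 of 18193 genes (0% of those tested) passed limma's adjusted p of 0.05, while 898 had an unadjusted p under 0.05. The 3 arrays per group limit the precision of every value below: the standard error of a kinesin's log2 difference ran from 0.12 to 0.32, with a median of 0.16.

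Most mitotic kinesins had slightly lower means in ImHABCL6/Uchl1 arrays, with groups that overlapped for every gene but Kif4 among the lower ones, and transport kinesins had no common direction. Of the 14 mitotic genes 11 had a lower mean in ImHABCL6/Uchl1 arrays, with a median log2 difference of -0.15, against 6 of the 16 transport genes, with a median of 0.049. Among all genes 49.4% were lower. The 3 mitotic genes that were not lower (Kif2b, Kif14 and Kif15) were read by dim probe sets. Among genes above the dim limit all 11 mitotic kinesins were lower (median -0.18) and 5 of 11 transport kinesins (median 0.034), beside 57.3% of all such genes (median -0.04). No kinesin passed limma's test over all genes, where the smallest adjusted p of the family was 0.983 (0% of all genes were called). At an unadjusted p of 0.05 there was 1 of 42, Kif5c, beside 4.94% of all genes. The mitotic median was -0.08 without ImHABCL6/Uchl1 replicate 3, without ImHABCL6 replicate 3 and after quantile normalization, and the transport median was -0.04 without ImHABCL6 replicate 3 and with the erythroid mean as a covariate.

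**Figure D1:**
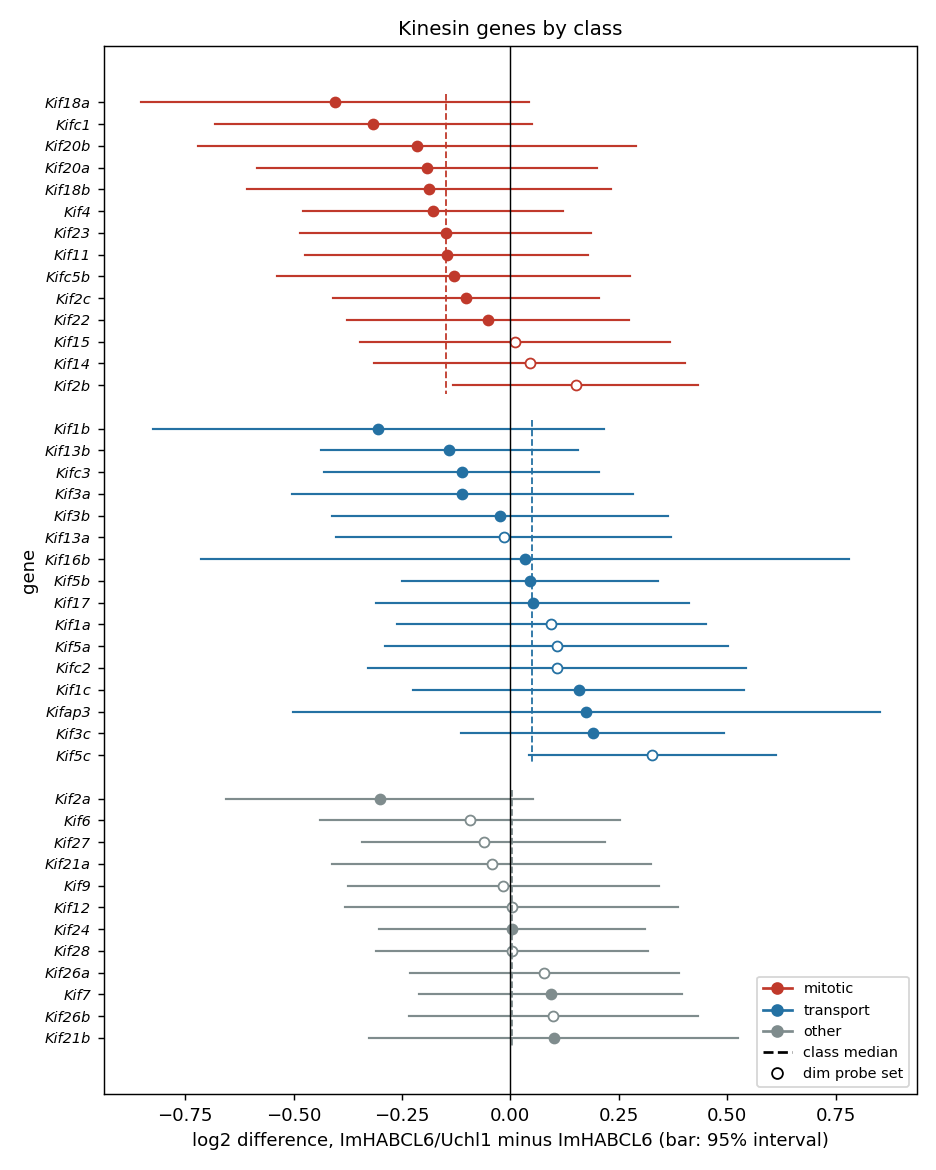
Log2 difference of each kinesin gene, ImHABCL6/Uchl1 minus ImHABCL6, with limma's 95% interval, for mitotic (red), transport (blue) and other kinesins (grey). Open circles are dim probe sets and dashed lines the class medians of -0.15, 0.049 and 0.0031. The interval of Kif5c alone lies on one side of 0.

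The mitotic and transport genes differed in the sequence around their start sites. A relation of this sequence to the array values was not tested. As background, many genes of late cell cycle share a promoter design in which a CCAAT box, bound by NF-Y, stands shortly before a CHR element (cell cycle genes homology region), bound by the DREAM and MuvB complexes, and E2F sites mark genes of the G1/S transition. RefSeq promoter windows (GRCm38.p6, 250 bases before to 50 after the start) were searched on both strands for CCAAT, for TTTGAA or TTCGAA as the CHR element, and for TTCCCGC or TTGGCGC as the E2F site. Where a gene had several windows, the first was read. Windows were found for 34 of the 42 genes, and no match of one kind overlapped a match of another in them. A CHR element was present in 11 of 13 mitotic windows and 0 of 11 transport windows, compared with 19.4% of the windows of all 27025 genes. Within 50 bases of the start the counts were 9 of 13 and 0 of 11, compared with 5.29% of all genes. A CCAAT box and a CHR element occurred together in 8 of 13 mitotic windows and 0 of 11 transport windows, and in 7.7% of all genes. The CCAAT box alone was in 9 of 13 and 4 of 11, with 37.9% among all genes. An E2F site was in 2 of 13 and 0 of 11, with 6.93% among all genes. The close paralogues Kifc1 and Kifc5b are counted separately, though their windows may not be independent. Counted in bases from the start, Kifc1 has CCAAT boxes at -74 and -45 and a CHR element at 1. In Kifc5b they begin at -46, -17 and 29. Of the 10 windows of other kinesins 3 held a CHR element (Kif24, Kif26b and Kif27). The second RefSeq window of the transport gene Kif1a does hold a CHR match. Kif20a, Kif13b, Kif5a, Kif5b, Kifc2, Kifc3, Kif21b and Kif28 were not matched to a window. These matches describe letters in a window and are not evidence of binding.

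**Figure D2:**
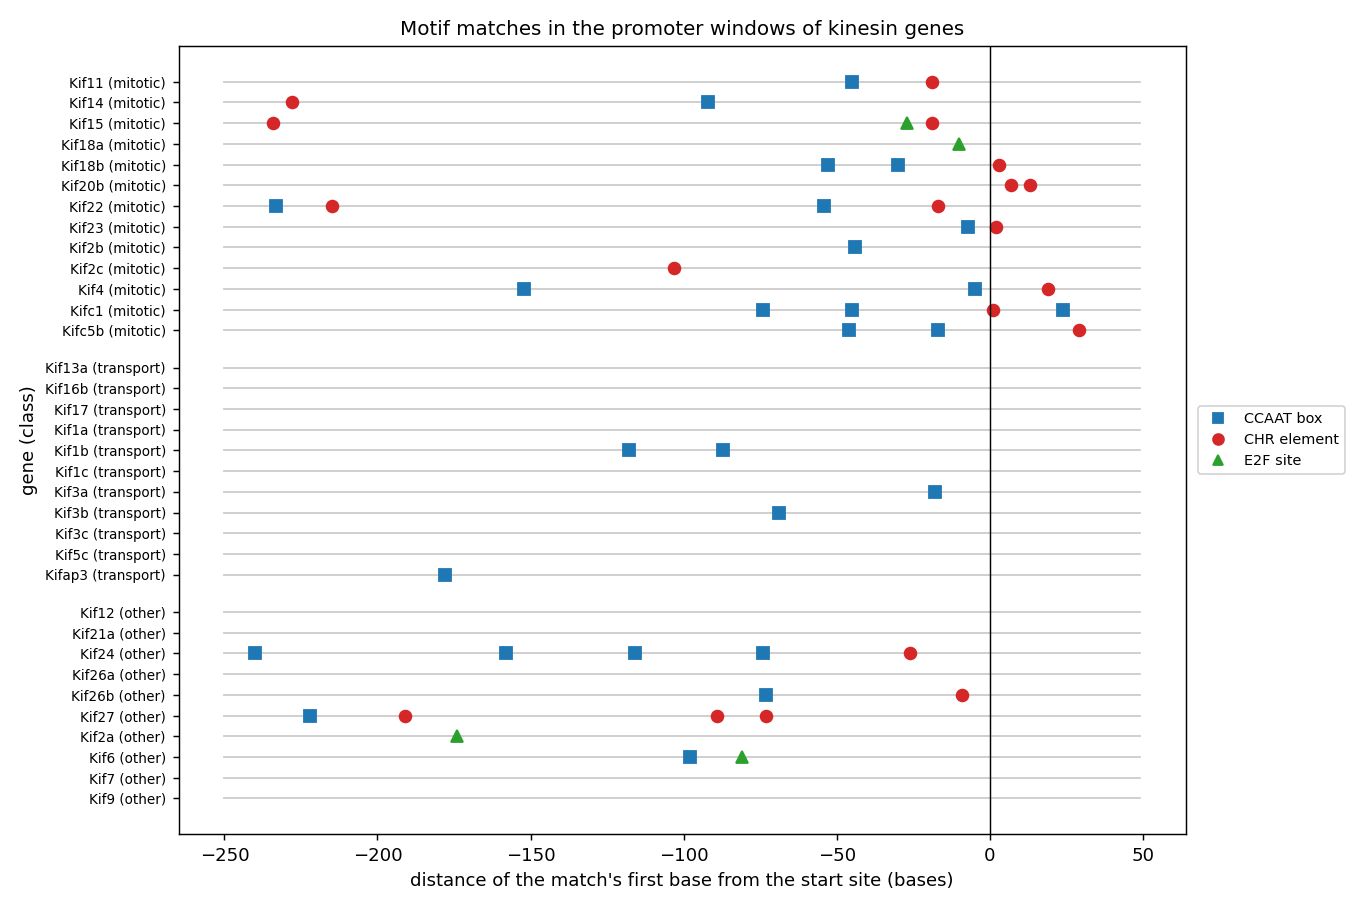
Positions of CCAAT boxes (blue squares), CHR elements (red circles) and E2F sites (green triangles) in the promoter windows of 34 kinesin genes, as distance in bases from the start site. Red circles gather around the start site of 9 of 13 mitotic genes and are absent from the 11 transport genes.

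The stretch from 70 bases before the start to 30 bases from it is printed for 6 mitotic genes that hold both elements near the start, with every complete match in capitals (ATTGG is the CCAAT box and TTCAAA the CHR element read on the other strand):
Kif11, chr19:37376312-37376411, plus strand: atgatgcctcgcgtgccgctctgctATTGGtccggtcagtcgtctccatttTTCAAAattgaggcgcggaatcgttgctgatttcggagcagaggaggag
Kif22, chr7:127042391-127042490, minus strand: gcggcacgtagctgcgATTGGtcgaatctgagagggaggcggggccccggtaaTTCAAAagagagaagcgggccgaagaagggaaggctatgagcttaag
Kif18b, chr11:102925095-102925194, minus strand: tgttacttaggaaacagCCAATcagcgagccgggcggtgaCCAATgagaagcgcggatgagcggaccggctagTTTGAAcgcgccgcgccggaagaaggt
Kif4, chrX:100625995-100626094, plus strand: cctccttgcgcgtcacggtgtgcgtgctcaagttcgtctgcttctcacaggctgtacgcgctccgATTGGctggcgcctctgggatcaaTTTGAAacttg
Kifc1, chr17:33890604-33890703, minus strand: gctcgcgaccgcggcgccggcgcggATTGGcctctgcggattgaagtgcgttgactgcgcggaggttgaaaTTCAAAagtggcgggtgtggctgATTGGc
Kif23, chr9:61946770-61946869, minus strand: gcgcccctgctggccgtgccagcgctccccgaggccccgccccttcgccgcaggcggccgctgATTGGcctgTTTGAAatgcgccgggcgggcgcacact

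Counted from the start, with negative positions before it, the CCAAT box of Kif11 began at -45 and its CHR element at -19. In Kif22 they began at -54 and -17. The CHR element began at 3 in Kif18b, at 1 in Kifc1, at 2 in Kif23 and at 19 in Kif4. Kif18a, the mitotic kinesin with the largest measured difference, held neither element in its whole window and had an E2F site instead, which is in capitals below:
Kif18a, chr2:109280668-109280767, plus strand: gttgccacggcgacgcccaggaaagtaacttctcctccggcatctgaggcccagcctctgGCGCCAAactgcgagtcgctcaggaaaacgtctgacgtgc

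For contrast, the transport genes Kif3b and Kif5c are shown over the same stretch, Kif3b with a CCAAT box and no CHR element and Kif5c with none of the searched motifs:
Kif3b, chr2:153291346-153291445, plus strand: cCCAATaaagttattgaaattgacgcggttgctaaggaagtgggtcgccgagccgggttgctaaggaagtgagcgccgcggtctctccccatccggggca
Kif5c, chr2:49619216-49619315, plus strand: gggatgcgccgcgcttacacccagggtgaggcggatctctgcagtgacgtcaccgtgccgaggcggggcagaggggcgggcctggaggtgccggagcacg

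Among the motors that make the spindle bipolar, Kif11 (kinesin-5, also called Eg5) slides antiparallel microtubules apart. It read 10.29, 9.92 and 9.99 in ImHABCL6/Uchl1 arrays and 10.23, 10.19 and 10.23 in ImHABCL6 arrays, a log2 difference of -0.15 (SE 0.14). Replicate 1 of the transgenic group was the highest of all 6 arrays and its other replicates were the lowest, so the groups overlapped. The other probe sets of Kif11 differed by -0.26, with every ImHABCL6/Uchl1 array below every ImHABCL6 array, and by -0.39 with overlap. Kifc1 (kinesin-14), the minus-end motor that focuses spindle poles, read 10.27, 10.15 and 9.96 in ImHABCL6/Uchl1 arrays and 10.26, 10.39 and 10.67 in ImHABCL6 arrays. Its difference of -0.32 (SE 0.16, 95% interval -0.68 to 0.05) was the next largest of the class after Kif18a, and overlap came from ImHABCL6/Uchl1 replicate 1, which lay just above ImHABCL6 replicate 1. Kifc5b, a close mouse paralogue of Kifc1, differed by -0.13, and the probe sets of the pair may share transcripts. Kif15 (kinesin-12), which backs up Kif11, was dim at 5.23, 5.71 and 5.48 in ImHABCL6/Uchl1 arrays and 5.53, 5.38 and 5.48 in ImHABCL6 arrays, and its difference of 0.011 turned negative after quantile normalization or median centring.

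Among the motors of chromosome alignment, Kif18a (kinesin-8), which shortens kinetochore microtubules so that chromosomes line up, had the largest difference of the class. It read 8.76, 8.39 and 8.19 in ImHABCL6/Uchl1 arrays and 8.63, 8.80 and 9.12 in ImHABCL6 arrays. That is a log2 difference of -0.40 (SE 0.19, 95% interval -0.85 to 0.04), or 0.755-fold, with an exact two-sided permutation p of 0.2. ImHABCL6/Uchl1 replicate 1 lay within the ImHABCL6 range and the other replicates below it, and the second probe set of Kif18a differed by -0.44, also with overlap. Kif18b, the kinesin-8 of astral microtubules, read 9.37, 9.71 and 9.26 in ImHABCL6/Uchl1 arrays and 9.42, 9.58 and 9.91 in ImHABCL6 arrays (difference -0.19, SE 0.18). Here replicate 2 was the highest transgenic array, and with the erythroid mean as a covariate the difference was 0.011.

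Kif2c (kinesin-13, also called MCAK) removes wrong attachments at centromeres by depolymerising microtubules. It read 10.34, 10.34 and 10.23 in ImHABCL6/Uchl1 arrays and 10.26, 10.41 and 10.54 in ImHABCL6 arrays, a difference of -0.10 (SE 0.13) within the spread between arrays. Its 4 probe sets disagreed, with differences of -0.12 to 0.19, and their mean gave 0.014. Kif2b, another kinesin-13 of the spindle, was dim and read 4.04, 4.11 and 4.20 in ImHABCL6/Uchl1 arrays and 3.99, 4.003 and 3.91 in ImHABCL6 arrays. It was the 1 mitotic gene higher in every ImHABCL6/Uchl1 array, beside 3.95% of all genes, at levels near the bottom of what the arrays read.

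The chromokinesins bind chromosome arms. Kif4 (kinesin-4), which also organises the central spindle, read 9.47, 9.43 and 9.35 in ImHABCL6/Uchl1 arrays and 9.48, 9.57 and 9.73 in ImHABCL6 arrays. It was the 1 mitotic gene of 14 with every ImHABCL6/Uchl1 array below every ImHABCL6 array, beside 5.49% of all genes, although the nearest arrays of the groups nearly touched. Its difference was -0.18 (SE 0.13), with an exact two-sided permutation p of 0.1, the smallest that 3 arrays against 3 allow. Kif22 (kinesin-10) pushes arms toward the spindle equator and read 11.83, 11.97 and 11.74 in ImHABCL6/Uchl1 arrays and 11.77, 11.85 and 12.08 in ImHABCL6 arrays, a difference of -0.0515 with overlap. Its probe sets disagreed in size: the brightest has a name ending in _x_at, which marks probes shared with other sequences, while the others differed by -0.25 with overlap and by -0.30 with every ImHABCL6/Uchl1 array below every ImHABCL6 array.

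The kinesin-6 motors of cytokinesis had lower means in ImHABCL6/Uchl1 arrays, with differences of -0.15 to -0.22, and overlapped between the groups. Kif20a (kinesin-6), which brings Aurora B to the central spindle, read 9.90, 9.49 and 9.34 in ImHABCL6/Uchl1 arrays and 9.68, 9.87 and 9.75 in ImHABCL6 arrays (difference -0.19, SE 0.17). Kif20b, a kinesin-6 of abscission, read 9.49, 9.17 and 8.61 in ImHABCL6/Uchl1 arrays and 9.20, 9.41 and 9.31 in ImHABCL6 arrays. Its difference of -0.22 (SE 0.22) came from replicate 3 and was 0.023 without that array. Kif23 (kinesin-6), the motor subunit of centralspindlin, read 10.48, 10.16 and 10.13 in ImHABCL6/Uchl1 arrays and 10.32, 10.49 and 10.41 in ImHABCL6 arrays, a difference of -0.15 (SE 0.15). Its less bright probe sets pointed apart, at 0.34 and -0.45. In all these kinesin-6 genes replicate 1 of the transgenic group lay at or near the top of the 6 arrays and replicate 3 at the bottom. Kif14 (kinesin-3), a midbody motor, had only a dim probe set, at 3.33, 3.78 and 3.51 in ImHABCL6/Uchl1 arrays and 3.54, 3.58 and 3.37 in ImHABCL6 arrays, a difference of 0.044 with overlap.

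**Figure D3:**
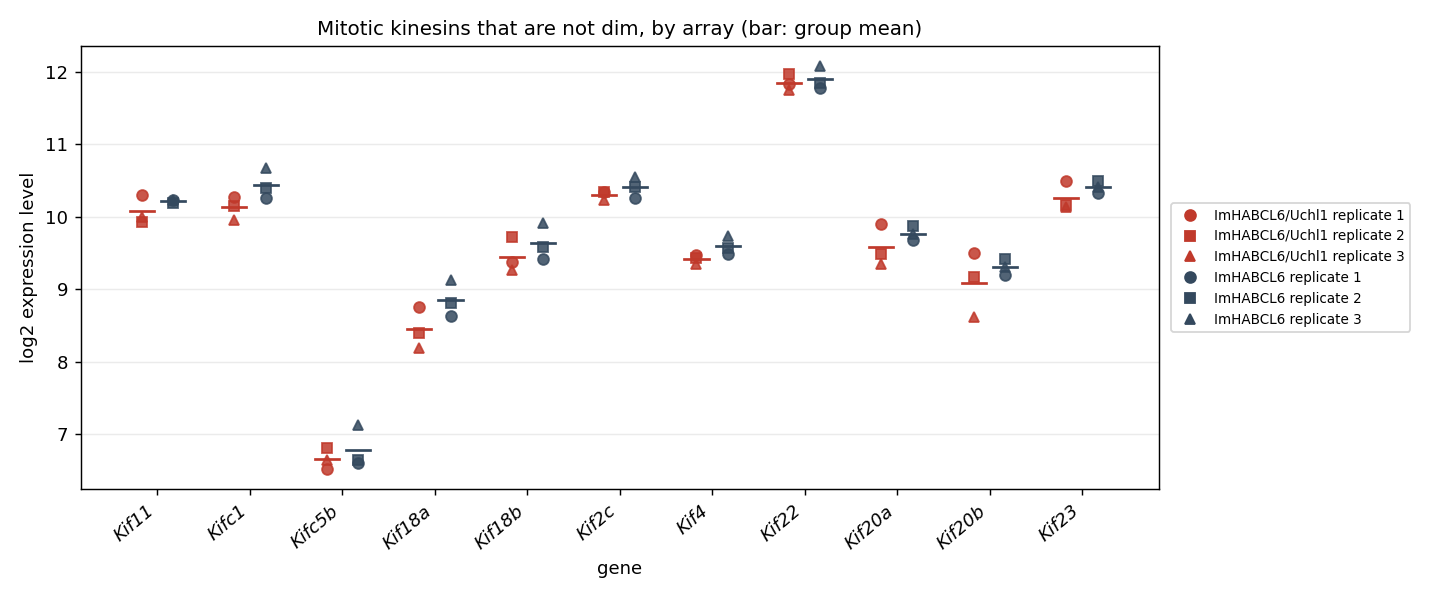
Log2 expression level of the 11 mitotic kinesins above the dim limit, by array: ImHABCL6/Uchl1 (red, left) and ImHABCL6 (dark, right), with bars for group means. Heights of different genes are not comparable. Every red bar is below its dark bar, and the points overlap for every gene but Kif4, whose nearest points nearly touch.

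Most mitotic kinesins shared the arrays in which they were highest and lowest. Of the 11 genes above the dim limit, 9 had their lowest value in ImHABCL6/Uchl1 replicate 3 and 7 had their highest in ImHABCL6 replicate 3. The highest of 3 others was in ImHABCL6/Uchl1 replicate 1. Averaged after subtracting each gene's own mean, these 11 genes stood at 0.04, -0.07 and -0.26 in the ImHABCL6/Uchl1 arrays and -0.04, 0.08 and 0.24 in the ImHABCL6 arrays. Replicate 1 of the transgenic group thus lay above ImHABCL6 replicate 1, and the group difference of -0.19 compares with SDs of 0.15 and 0.14 between mice of a group (n = 3 each). Without ImHABCL6/Uchl1 replicate 1, 7 of the 14 mitotic genes lay lower in every remaining ImHABCL6/Uchl1 array, and 2 of 16 transport genes (Kif3b and Kif13b). The share of all genes, dim ones included, was then 13.6%. Leaving out any other array gave 1 to 4 mitotic genes. Replicate 1 of the transgenic group made much of the mitotic overlap, so a rise without it is partly built in. ImHABCL6/Uchl1 replicate 1 had the lowest erythroid mean, and the erythroid markers were lower in ImHABCL6/Uchl1 arrays as a group (median -1.11, 16 of 16). Taken in order of rising erythroid mean, the arrays were ImHABCL6/Uchl1 replicates 1 and 3, ImHABCL6 replicate 1, ImHABCL6/Uchl1 replicate 2 and ImHABCL6 replicates 2 and 3, and their mitotic means in that order were 0.04, -0.26, -0.04, -0.07, 0.08 and 0.24. Beyond the fit in the next sentence the part of erythroid RNA in the mitotic difference was not tested. With the erythroid mean as a covariate the mitotic median was -0.11 and 8 of the 14 genes were lower, beside 52.9% of all genes. The proliferation marker Mki67 read 13.47, 13.63 and 13.27 in ImHABCL6/Uchl1 arrays and 13.58, 13.70 and 14.01 in ImHABCL6 arrays, a difference of -0.30 (SE 0.17). Like most mitotic kinesins it was lowest in ImHABCL6/Uchl1 replicate 3 and highest in ImHABCL6 replicate 3. Its overlap came from ImHABCL6/Uchl1 replicate 2, while replicate 1 lay below every ImHABCL6 array.

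The partners of mitotic kinesins had differences of the same sign as most of the motors. Of 19 measured partners, chosen by known role, 19 had a lower mean in ImHABCL6/Uchl1 arrays (beside 57.3% of genes above the dim limit, where all 19 lie), with a median difference of -0.22, and 0 passed limma's test over all genes. Psrc1 is a microtubule-binding protein that recruits Kif2a to the spindle, a motor counted here among the other kinesins. Psrc1 read 8.42, 8.30 and 7.93 in ImHABCL6/Uchl1 arrays and 8.66, 8.56 and 8.82 in ImHABCL6 arrays (difference -0.46, SE 0.17). Its groups were apart. Cdk1, the kinase that starts mitosis, read 10.72, 10.79 and 11.01 in ImHABCL6/Uchl1 arrays and 11.08, 11.16 and 11.19 in ImHABCL6 arrays (difference -0.31, SE 0.13). Prc1, the antiparallel microtubule bundler that binds Kif4, read 10.31, 10.597 and 10.43 in ImHABCL6/Uchl1 arrays and 10.61, 10.83 and 10.98 in ImHABCL6 arrays (difference -0.36, SE 0.15). These 3 partners were the ones lower in every ImHABCL6/Uchl1 array, beside 5.49% of all genes and 7.6% of those above the dim limit. Tpx2, which targets Kif11 and Kif15 to the spindle, read 9.8, 9.47 and 9.46 in ImHABCL6/Uchl1 arrays and 9.79, 9.98 and 10.09 in ImHABCL6 arrays (difference -0.38, SE 0.15), with overlap through ImHABCL6/Uchl1 replicate 1. Cenpe, the kinesin-7 of kinetochores, whose symbol keeps it outside the family rule, differed by -0.29 (SE 0.18), and Racgap1, which forms centralspindlin with Kif23, by -0.06 (SE 0.14). The partners were picked with results of these arrays known, so their count adds no independent evidence.

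**Figure D4:**
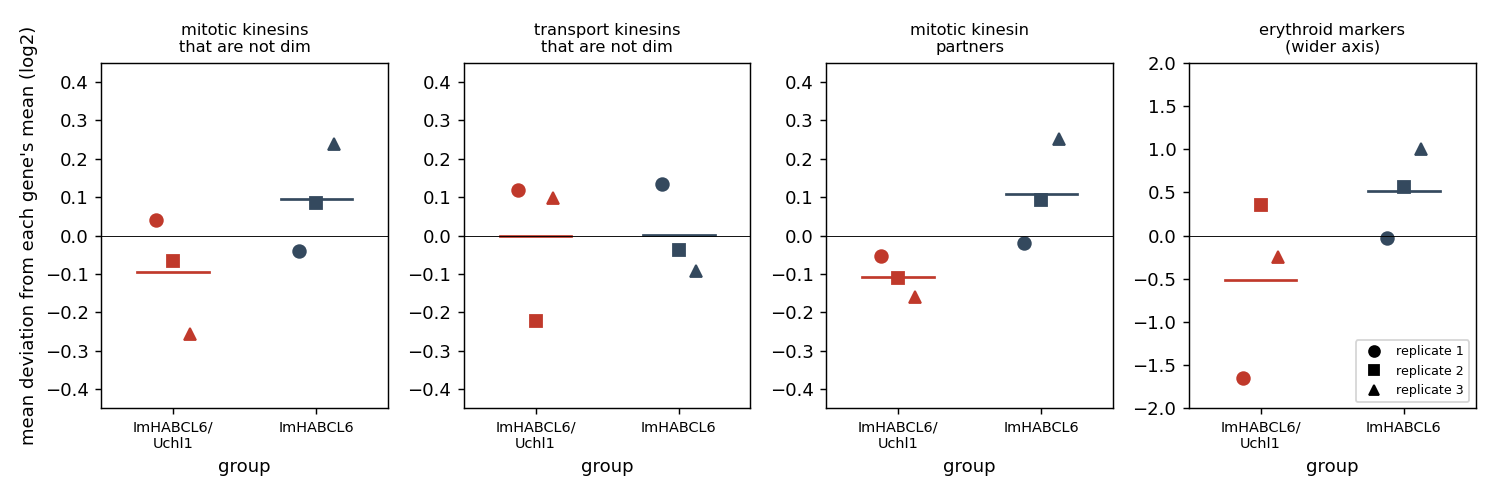
Mean deviation from each gene's own mean (log2) in each array, for mitotic and transport kinesins above the dim limit, mitotic kinesin partners and erythroid markers. ImHABCL6/Uchl1 is left of ImHABCL6, bars are group means, and the erythroid axis is wider. Partner values lie apart, while mitotic values overlap between the groups through ImHABCL6/Uchl1 replicate 1 (0.04), which has the lowest erythroid value (-1.65).

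Among the transport kinesins, Kif5b is the conventional kinesin heavy chain found in all cells. It read 10.80, 10.64 and 10.89 in ImHABCL6/Uchl1 arrays and 10.78, 10.70 and 10.72 in ImHABCL6 arrays, a difference of 0.046 with a 95% interval of -0.25 to 0.34. All 6 of its probe sets gave small positive differences, of 0.04 to 0.21. The neuronal heavy chain Kif5c was the 1 transport gene of 16 with the groups apart. Every ImHABCL6/Uchl1 array was above every ImHABCL6 array, as in 3.95% of all genes. Kif5c read 4.48, 4.46 and 4.48 in ImHABCL6/Uchl1 arrays and 4.26, 4.11 and 4.07 in ImHABCL6 arrays. Its difference of 0.33 (SE 0.12) had an unadjusted limma p of 0.0292 and an adjusted p of 0.983. The probe set was dim and the other 3 probe sets of Kif5c, all dim, differed by -0.08 to 0.10 with overlap.

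Heterotrimeric kinesin-2, made of Kif3a, Kif3b and the adaptor Kifap3, moves vesicles and ciliary cargo. Kif3a read 6.52, 6.02 and 6.41 in ImHABCL6/Uchl1 arrays and 6.53, 6.51 and 6.25 in ImHABCL6 arrays (difference -0.11, SE 0.17). Kif3b read 7.32, 6.84 and 6.82 in ImHABCL6/Uchl1 arrays and 7.12, 7.01 and 6.92 in ImHABCL6 arrays (difference -0.0245, SE 0.17). In these probe sets Kif3a and Kif3b overlapped fully. The other probe sets of Kif3b, all above the dim limit, differed by -0.33 (SE 0.15), -0.07 and 0.10, each with overlap. Kif3c, an alternative partner of Kif3a, differed by 0.19 (SE 0.13) with slight overlap. Kifap3 varied far more between mice, at 8.07, 7.87 and 8.47 in ImHABCL6/Uchl1 arrays and 8.63, 7.71 and 7.54 in ImHABCL6 arrays, and its difference of 0.17 had a standard error of 0.29. Its high arrays were ImHABCL6 replicate 1 and ImHABCL6/Uchl1 replicates 1 and 3, the same 3 arrays that had the lowest erythroid means, and with the erythroid mean as a covariate the difference was -0.0761.

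Of the kinesin-3 carriers, Kif16b, which moves early endosomes, had the largest standard error. It read 6.83, 5.79 and 6.66 in ImHABCL6/Uchl1 arrays and 6.95, 6.22 and 6.01 in ImHABCL6 arrays, so that arrays of each group fell into a high and a low range. Its 3 high arrays were again those of low erythroid mean. The group difference of 0.034 (SE 0.32) was -0.53 with the erythroid mean as a covariate. Kif1b, a carrier of mitochondria and synaptic vesicle precursors, read 6.55, 5.94 and 6.87 in ImHABCL6/Uchl1 arrays and 6.74, 6.79 and 6.73 in ImHABCL6 arrays. In this probe set the ImHABCL6 mice were close together. Its difference of -0.30 (SE 0.23) came mostly from ImHABCL6/Uchl1 replicate 2, without which it was -0.05. The other probe sets of Kif1b differed by -0.34 to 0.02. The one at -0.34, above the dim limit, read 6.14, 5.94 and 6.08 in ImHABCL6/Uchl1 arrays. In ImHABCL6 arrays it read 6.69, 6.57 and 5.91, with overlap through replicate 3. Kif1c, a carrier of dense core vesicles and integrins, read 7.71, 7.16 and 7.52 in ImHABCL6/Uchl1 arrays and 7.39, 7.29 and 7.23 in ImHABCL6 arrays (difference 0.16, SE 0.17). Kif13b, which binds the scaffold DLG1, read 7.35, 7.14 and 7.14 in ImHABCL6/Uchl1 arrays and 7.42, 7.31 and 7.32 in ImHABCL6 arrays (difference -0.14, SE 0.13), and Dlg1 itself differed by -0.13. Only ImHABCL6/Uchl1 replicate 1 of Kif13b overlapped the ImHABCL6 values. Kif13a, a carrier of endosomes, was dim at 5.23, 5.60 and 5.44 in ImHABCL6/Uchl1 arrays and 5.49, 5.64 and 5.18 in ImHABCL6 arrays (difference -0.015).

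The remaining transport genes (Kif1a, Kif5a, Kif17, Kifc2 and Kifc3) overlapped between the groups and differed by -0.11 to 0.11. Averaged like the mitotic genes, the 11 transport kinesins above the dim limit stood at 0.12, -0.22 and 0.10 in the ImHABCL6/Uchl1 arrays and 0.13, -0.04 and -0.09 in the ImHABCL6 arrays, so 3 arrays from both groups lay high. Of these genes 6 had their lowest value in ImHABCL6/Uchl1 replicate 2 and 5 their highest in ImHABCL6 replicate 1. The arrays most often extreme for transport kinesins were thus other ones than for mitotic kinesins. Some extremes were shared: ImHABCL6/Uchl1 replicate 1 was highest for 3 genes of each class. ImHABCL6/Uchl1 replicate 3 was lowest for 2 of these transport genes as well. The difference between the mean mitotic and mean transport deviation, over all 14 and 16 genes, was -0.06, 0.07 and -0.27 in the ImHABCL6/Uchl1 arrays and -0.11, 0.07 and 0.29 in the ImHABCL6 arrays. These values overlapped, and the difference of -0.17 between their group means compares with SDs of 0.17 and 0.20 (n = 3 each).

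**Figure D5:**
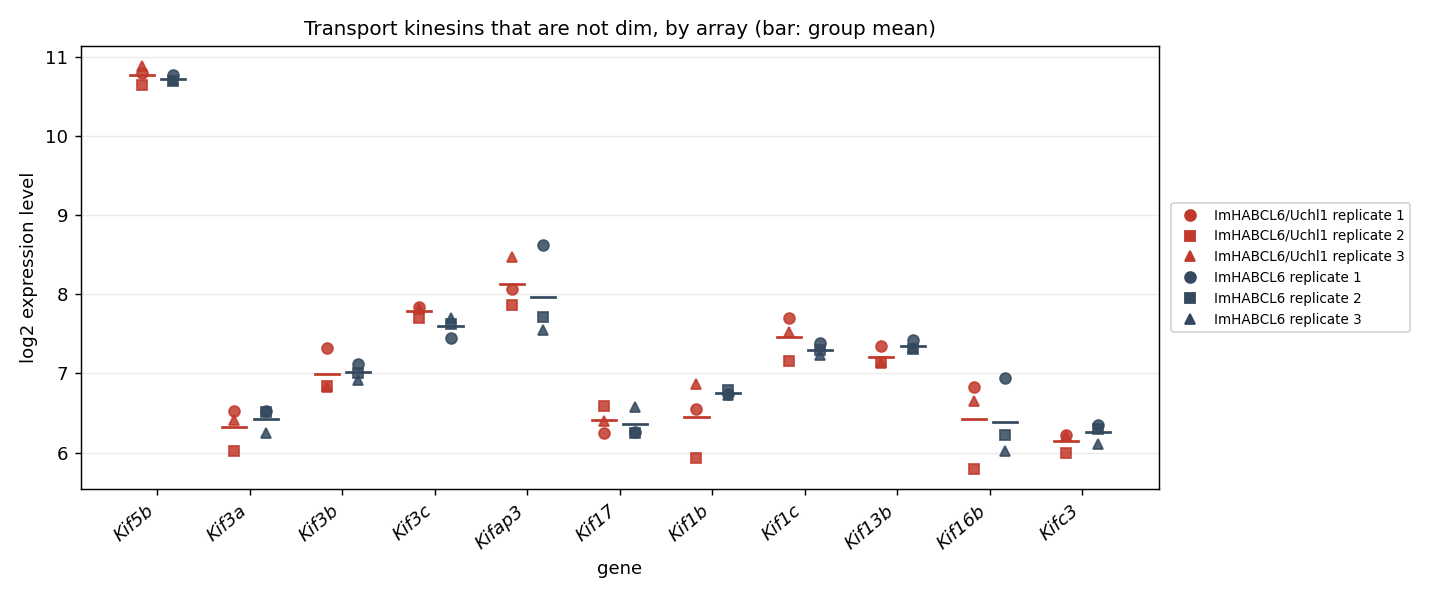
Log2 expression level of the 11 transport kinesins above the dim limit, by array: ImHABCL6/Uchl1 (red, left) and ImHABCL6 (dark, right), with bars for group means. Heights of different genes are not comparable. Kif5b is nearly level between groups, while Kifap3 and Kif16b spread widely within both groups.

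Of 17 measured partners of transport kinesins 13 had a lower mean in the transgenic arrays (median difference -0.06), beside 49.4% of all genes and 57.3% of those above the dim limit. Of these partners 0 had an unadjusted limma p under 0.05, beside 4.94% of all genes. The scaffold Mapk8ip3 read 7.23, 7.67 and 5.97 in ImHABCL6/Uchl1 arrays and 7.39, 7.68 and 7.93 in ImHABCL6 arrays, a difference of -0.71 (SE 0.39) that rested on replicate 3 of the transgenic group. The mitochondrial adaptor Trak2 read 9.58, 11.02 and 9.96 in ImHABCL6/Uchl1 arrays and 10.37, 10.72 and 11.32 in ImHABCL6 arrays (difference -0.61, SE 0.38), low in the 3 arrays of low erythroid mean. Rhot1, the mitochondrial GTPase that anchors Trak adaptors, differed by -0.33 (SE 0.27). Mapk8ip2 differed by 0.13 (SE 0.12). The kinesin light chains Klc1, Klc3 and Klc4, which link cargo to Kif5 motors, differed by -0.17, -0.01 and -0.06.

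Among the other kinesins Kif2a had the largest difference. It is a kinesin-13 depolymerase that acts at spindle poles and also in neurons, and it read 9.35, 9.58 and 9.45 in ImHABCL6/Uchl1 arrays and 9.51, 9.88 and 9.89 in ImHABCL6 arrays. The difference was -0.30 (SE 0.15, 95% interval -0.65 to 0.05), with slight overlap through ImHABCL6 replicate 1. Its 5 probe sets all had negative differences, of -0.07 for the dim one and -0.24 to -0.30 for the others. Kif21b, a regulator of microtubule growth that brain and immune cells make, read 8.27, 8.05 and 7.59 in ImHABCL6/Uchl1 arrays and 7.82, 7.87 and 7.91 in ImHABCL6 arrays. Its difference of 0.10 (SE 0.18) was smaller than the spread of the transgenic mice, and was -0.17 with array weights. Its relative Kif21a was dim, at 4.67, 4.63 and 4.36 in ImHABCL6/Uchl1 arrays and 4.83, 4.51 and 4.45 in ImHABCL6 arrays. Kif24, a centriolar depolymerase that restrains cilia, read 7.97, 8.12 and 8.14 in ImHABCL6/Uchl1 arrays and 8.14, 7.93 and 8.17 in ImHABCL6 arrays, a difference of 0.0034 with a 95% interval of -0.30 to 0.31. The other probe sets of Kif24 were dim. They differed by -0.28, with every ImHABCL6/Uchl1 array below every ImHABCL6 array, and by -0.09 with overlap. The other 8 genes, of cilia, Hedgehog signalling, kidney and little described functions (Kif6, Kif7, Kif9, Kif12, Kif26a, Kif26b, Kif27 and Kif28), differed by -0.09 to 0.10, and all but Kif7 were dim.

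Read over all 106 kinesin probe sets in place of 1 per gene, 21 of 27 mitotic probe sets were lower in ImHABCL6/Uchl1 arrays (median -0.18) and 27 of 56 transport probe sets (median 0.017), beside 48.1% of all 34945 named probe sets. Of the mitotic probe sets above the dim limit 19 of 22 were lower, beside 55.6% of all such probe sets. In 3 of them, 1 each for Kif4, Kif11 and Kif22, every ImHABCL6/Uchl1 array was below every ImHABCL6 array, beside 7.16% of all such probe sets. Probe sets of a gene share its transcripts and are not independent.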

How the data were processed

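RNA of germinal centre B cells from the spleens of 6 mice was read on Affymetrix mouse expression arrays. The values, as deposited, are on a log2 scale with 1 level for each probe set in each array. RMA made them per the submitters' processing notes, which name Partek too and give no version or setting. RMA compresses differences of dim probe sets. No detection calls came with the values.

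GEO's annotation of the array gave the symbols. Of 45101, 34945 had 1 symbol and were no Affymetrix control, giving 18193 genes, each read by its probe set of highest mean. Updating symbols through Entrez identifiers changed 0. Each difference is the ImHABCL6/Uchl1 mean less the ImHABCL6 mean, tested two-sided by lmFit and eBayes of limma 3.58.1 (R 4.3.3). Its p-values were adjusted by Benjamini and Hochberg's method across the 18193 genes, and 0.05 was the threshold. Single genes were also compared with exact permutation tests. A probe set was called dim if its mean over the 6 arrays was under the median of all values (5.60). The design text gives 3 mice per group. Classes and lists are described by counts and medians, with no test of their own. The steps were tested on simulated data.

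The kinesin genes, their classes and the partner and marker lists were chosen with earlier results of these data known. Values in every array are given for a set of members fixed by role and for members with an unadjusted p under 0.05 or a difference of at least 0.5; the 4 partners of smallest p in each list are also named. Kif2b, Kif3c, Kifc5b, Mki67, Cenpe, Racgap1, Dlg1 and the light chains were named beyond that rule, after their values were seen. The alternatives tried were other probe-set choices, normalizations, filters and limma settings, a replicate block, an erythroid covariate and leaving out each array. Promoter sequences and coordinates are those of RefSeq (GRCm38.p6); proteins were not analysed here. Figures were drawn with matplotlib 3.10.9.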

Additional observations from a re-analysis of the deposited data

How the results depend on the processing

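Under every alternative run, 0 kinesin genes and 0 of all genes passed limma's adjusted p of 0.05, and the mitotic median stayed negative. It was between -0.21 and -0.08 when each array was left out in turn and -0.15 with the replicate block. The transport median ran from -0.04 to 0.06 when arrays were left out, and was also negative with the erythroid mean as a covariate (-0.04). Mitotic genes with a negative difference numbered 9 to 13 of 14 when arrays were left out, and transport genes 4 to 9 of 16. The share of all genes was then 46.4% to 54.3%. With the erythroid mean as a covariate 8 mitotic and 9 transport genes had a negative difference, beside 52.9% of all genes. The cause of the changes below was not tested.

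Kinesin genes with an unadjusted p under 0.05 numbered 1 in the main analysis, beside 4.94% of all genes. Averaging the probe sets of each gene gave 2, beside 4.84%. The count was 0 without suffixed probe sets (beside 4.94% of the genes left) and without dim genes (beside 5.88% of those left). It was also 0 after median centring (beside 5.13%) or with the replicate block (beside 5.51%). Leaving out single arrays gave 0 to 4, beside 2.13% to 7.31% of all genes. The count of 4 came without ImHABCL6 replicate 1, beside 5.01%. There were 7 with array weights, where 15.5% of all genes had such a p; these weights gave ImHABCL6/Uchl1 replicate 3, the array of the lowest mitotic mean, 3.30 and its replicate 2 only 0.297. Mitotic kinesins lower in every ImHABCL6/Uchl1 array numbered 2 with the mean of all probe sets, beside 5.07% of all genes. Without suffixed probe sets there were also 2, beside 5.36%. After quantile normalization or median centring there were 0, beside 5.12% and 7.01%. Without single arrays such mitotic kinesins numbered 1 to 7. They numbered 7 without ImHABCL6/Uchl1 replicate 1 (beside 13.6% of all genes), 2 without ImHABCL6/Uchl1 replicate 2 (beside 11.3%, a share close to 2 of 14) and 4 without ImHABCL6 replicate 1 (beside 10.04%). For transport kinesins the range without single arrays was 0 to 2, beside 7.27% to 13.6% of all genes.

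Of 26 single genes, 19 of 226 values outside the left-out arrays had the other sign. With the erythroid mean as a covariate Kif18b was at 0.0111, Kif22 at 0.0448, Kif5b at -0.0102, Kifap3 at -0.0761, Kif1c at -0.0775, Kif13a at 0.0761, Kif16b at -0.53 and Kif21b at -0.0243. With the mean of all probe sets Kif2c was at 0.0135, Kif13a at 0.0647, Kif13b at 0.0235, Kif16b at -0.0344 and Kif24 at -0.12. Kif16b was at -0.0904 without suffixed probe sets. Kif15 was at -0.0186 after quantile normalization and -0.021 after median centring, and Kif24 at -0.0284 after median centring. With array weights Kif14 was at -0.0033 and Kif21b at -0.17. Leaving out single arrays gave ranges across 0 for Kif15 (-0.11 to 0.13), Kif22 (-0.12 to 0.0375), Kif14 (-0.076 to 0.15), Kif20b (-0.42 to 0.0231), Kif5b (-0.01 to 0.11), Kif3a (-0.21 to 0.0366), Kif3b (-0.19 to 0.0595), Kifap3 (-0.034 to 0.51), Kif13a (-0.14 to 0.0852), Kif16b (-0.17 to 0.35), Kif21a (-0.12 to 0.075), Kif21b (-0.0498 to 0.29) and Kif24 (-0.0712 to 0.0565).

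The labels do not say that replicate numbers pair mice, deviations of same-numbered arrays correlated at 0.43, 0.19 and -0.26, and with the replicate block Kif5c lost its unadjusted p under 0.05. For dim probe sets the signal over background limits what can be read, and 3 arrays per group limit every value.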
